A study of Mus musculus with 6 samples.

Results

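The circadian clock genes were examined in 3T3-L1 adipocytes, a mouse fat cell line, exposed for 24 hours to media conditioned by leukemia cells (LCM). The genes were Arntl and Clock (activators), Per1, Per2, Per3, Cry1 and Cry2 (repressors of the activators), Nr1d1 and Nr1d2 (repressors of Arntl) and Dbp (an output factor). Members were taken as the rows of the expression table whose array annotation names exactly 1 of these 10 genes, which held for 7 of the 10, among 14860 genes measured in this way. The transcript of Per2 is annotated together with 9830107B12Rik and that of Nr1d1 together with Thra, so no value could be assigned to either gene, and Cry2 was not analysed here. Each of the 7 genes had 1 transcript.

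The LCM group was made up of 3 cultures and the control group of 3 cultures in regular media, each hybridized to its own Affymetrix array and described as biological replicates. All cultures came from the same pre-adipocyte line from ATCC, used under 6 passages and differentiated over 7 days, so that the replicates are cultures of a single line. The labels name 8093 cells, a mouse acute lymphoblastic leukemia line, as the source of the LCM, conditioned for 48 hours in RPMI1640 with serum, IL-3 and beta-mercaptoethanol. The methods of the study name BV173, a human leukemia line, instead. The labels give RPMI1640 and the methods give DMEM as the medium in which the adipocytes were kept. What the regular media contained is not stated. Neither the time of day at which media were changed and cells were collected nor any synchronization of the cultures is stated, and a single time point was measured. The p-values below set the difference between the groups against the spread between these cultures of a single line.

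As background, the mammalian clock is a feedback loop of transcription that runs in most cells, fat cells included. The proteins of Arntl (also called BMAL1) and Clock pair and bind the E-box, and so switch on the Per, Cry, Nr1d and Dbp genes. PER and CRY proteins then inhibit the activator pair, while the NR1D proteins (REV-ERBs) compete with ROR proteins at the RORE and hold Arntl down. DBP binds the D-box and carries the rhythm to other genes. In a rhythmic tissue the Arntl transcript is high when those of Nr1d1 and Dbp are low. In cultured cells, a change of serum or medium can itself set the clock.

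Expression values are log2 values that the authors made with RMA, so that a difference of 1 is a doubling. Pairs of arrays had correlations of 0.979 to 0.994. Control replicate 2 correlated at 0.980 and 0.984 with control replicates 1 and 3, against 0.987 between those arrays. Control replicate 3 correlated more with LCM replicates 1 and 2 (0.989 each) than with either other control. The control arrays thus did not all lie nearest each other. Of the adipocyte markers, 6 could be measured, at log2 levels of 9.10 to 13.5. Adipoq and Cidec fell in LCM (log2 fold change -0.59 and -0.45, adjusted p = 0.0170 and 0.0309 from limma), and all 6 were lower in every LCM array than in every control array, which held for 14.7% of all genes. The 5 pre-adipocyte markers lay between 6.25 and 12.2, with 2 of them, Pdgfra and Cd34, below the controls in all LCM arrays, against the same 14.7%. Of 8 B lineage markers, 4 could be measured and none passed. Ebf1, which fat cells also express, lay between 11.2 and 11.7, Cd79a between 5.53 and 6.88, Cd79b between 6.04 and 6.62 and Ptprc between 4.22 and 4.36. Of 5 macrophage markers, 4 could be measured and Cd68 rose (log2 fold change 0.44, adjusted p = 0.0446 from limma), whereas Csf1r, Itgam and Adgre1 lay between 4.75 and 6.32 on every array. The part of these marker differences in the clock gene values was not tested, and fewer cells of a type and less RNA per cell cannot be told apart in such samples.

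In LCM, none of the 7 clock genes passed an adjusted p of 0.05 from limma, a linear model in which the spread of each gene is moderated by that of all others (0 rose and 0 fell). Over all 14860 genes, 2.29% rose and 1.97% fell by this rule. At an unadjusted p under 0.05 from limma, Per3 and Dbp were higher and Clock was lower, which is 2 and 1 of 7 genes, against 9.25% and 10.3% of all genes. All 3 LCM arrays lay above all 3 control arrays for Per1, Per3 and Dbp and below them for Clock, which is 3 and 1 of 7 genes, against 12.8% and 14.7% of all genes. The log2 fold change was negative for both activators and positive for all 5 other genes. Among all genes tested, the log2 fold change was negative for 8538 and positive for 6322. Its median was -0.21 over the activators and 0.15 over Per1, Per3 and Cry1, beside -0.03 over all genes tested. Nr1d2 was at 0.30 and Dbp at 0.51, and the median over these 5 genes together was 0.30. The values of the activators were smaller in size without control replicate 2, at -0.15 for Clock and -0.04 for Arntl. For Clock the LCM arrays also lay below both other controls. Single arrays moved values among the other 5 genes too, with 0.10 for Per1 and 0.06 for Cry1 without LCM replicate 3. Nr1d2 was at 0.45 without control replicate 2 and at 0.19 without control replicate 3. With counts this small, these shares describe the 7 genes and carry no test. An exact permutation test of 3 against 3 arrays cannot give a two-sided p below 0.1.

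**Figure D1:**
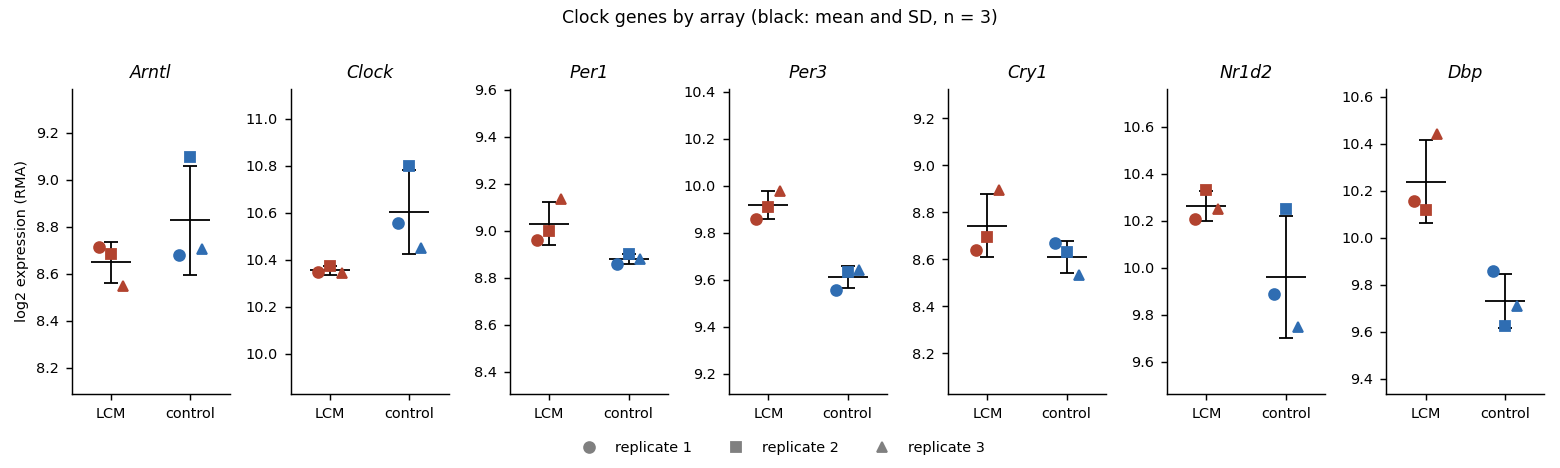
Log2 expression of the 7 clock genes on each array, with LCM left of control, points for replicates 1, 2 and 3, and bars for the mean and SD (n = 3); all panels span the same range of log2 units. The LCM arrays of Per1, Per3 and Dbp lie above the controls, those of Clock lie below, and control replicate 2 is far above the other controls for Arntl, Clock and Nr1d2.

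Of the activators, Clock encodes a DNA-binding partner with acetyltransferase activity. Its log2 level was 10.35, 10.37 and 10.34 in LCM replicates 1, 2 and 3, against 10.56, 10.80 and 10.45 in control replicates 1, 2 and 3. The LCM arrays lay within 0.03 of each other and below every control, and control replicate 2 was the highest. The mean was 10.35 ± 0.02 in LCM and 10.60 ± 0.18 in control (SD, n = 3 each), with a log2 fold change of -0.25 (95% interval -0.48 to -0.02, adjusted p = 0.225 from limma). Without control replicate 2 the log2 fold change was -0.15, with an adjusted p of 0.197 from limma.

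Arntl encodes BMAL1, the partner of CLOCK and the activator whose transcript swings most in rhythmic tissues. The log2 level of Arntl was 8.71, 8.68 and 8.55 in the LCM arrays, against 8.68, 9.10 and 8.71 in the control arrays. The groups overlapped, and the difference rested on control replicate 2, which lay 0.40 above the mean of the other controls. The mean was 8.65 ± 0.09 in LCM and 8.83 ± 0.23 in control (SD, n = 3 each), a log2 fold change of -0.18 (95% interval -0.47 to 0.11, adjusted p = 0.488 from limma). Without control replicate 2 the log2 fold change was -0.04.

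The 3 motifs of the loop were searched in RefSeq promoter windows of GRCm38.p6, which run from 250 bases before to 50 bases after an annotated start. These were the E-box CACGTG, the D-box TTATGNAA and the RORE core TAGGTCA, each on both strands, and no matches overlapped in the windows of the clock genes. A window was found for 9 of the 10 clock genes (13 windows in all), not for Per2. A match stood in a window of Arntl, Per1, Per3 and Cry1. Over all 32851 windows, 7.15% held the E-box, 3.38% the D-box and 2.61% the RORE core. These shares count windows, not genes, and Arntl, Clock and Per1 had more than 1 window each. The forms of the motifs were chosen with the windows in view. A match is a description of the letters only, and in the windows of the other genes these letters were absent, from which nothing follows about the factors.

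**Figure D2:**
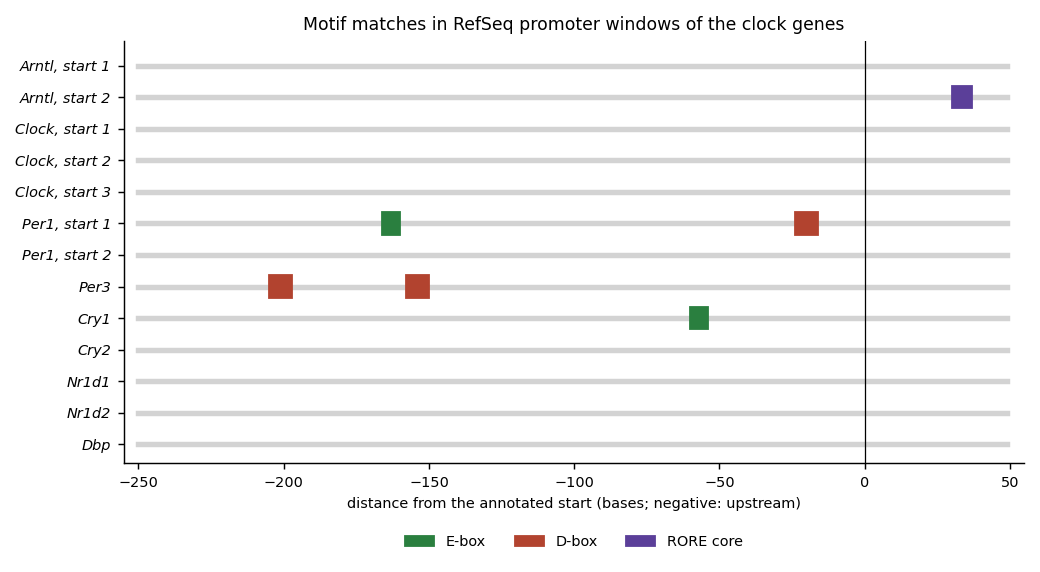
Matches to the E-box, the D-box and the RORE core in the 13 RefSeq windows of the clock genes; the horizontal axis is the distance from the annotated start in bases, each grey line is a window, and Per2 has none. Per3 has 2 D-boxes, Per1 an E-box and a D-box, Cry1 an E-box and Arntl a RORE core downstream of its second start.

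The match in Arntl is shown because ROR and REV-ERB proteins are known to act on this gene through RORE sequences. Whether these letters are such a site was not tested. The match to the RORE core, in capitals, begins 30 bases downstream of the second annotated start, and the bases shown lie at chr7:113207530-113207559 on the plus strand.
Arntl site: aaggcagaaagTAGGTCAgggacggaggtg

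Among the repressors, Per3 encodes a PERIOD protein that is not needed for rhythm in mice but follows it closely. Its log2 level was 9.86, 9.91 and 9.98 in LCM replicates 1, 2 and 3, against 9.56, 9.63 and 9.64 in the control replicates. Every LCM array was above every control array, and both groups were tight. The mean was 9.92 ± 0.06 in LCM and 9.61 ± 0.05 in control (SD, n = 3 each), 1.24-fold higher in LCM, with an adjusted p of 0.0630 from limma. The log2 fold change was 0.31 with a standard error of 0.07, and the 95% interval was 0.14 to 0.47. The gene passed without control replicate 2 (adjusted p = 0.0417 from limma), and without any other array the adjusted p lay between 0.114 and 0.234. Over all genes, 680 rose and 652 fell without control replicate 2, against 341 and 292 with all arrays. Without an LCM array, 39 to 66 of all genes rose and 21 to 33 fell. Passes of single genes without an array, here and below, are to be read beside these counts.

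Per1 encodes the PERIOD protein whose gene answers fastest to serum, cAMP and glucocorticoids. On the log2 scale it measured 8.96, 9.00 and 9.13 in the LCM arrays, against 8.86, 8.90 and 8.88 in the control arrays. The groups did not overlap, but the nearest arrays, LCM replicate 1 and control replicate 2, were close together. The mean was 9.03 ± 0.09 in LCM and 8.88 ± 0.02 in control (SD, n = 3 each), a log2 fold change of 0.15 (95% interval -0.02 to 0.33, adjusted p = 0.323 from limma). Without LCM replicate 3 it was 0.10.

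Cry1 encodes the cryptochrome that is the stronger inhibitor of the activator pair. Its log2 level was 8.64, 8.69 and 8.89 in the LCM arrays, against 8.67, 8.63 and 8.53 in the control arrays. The groups overlapped, and only LCM replicates 2 and 3 lay above all controls. The mean was 8.74 ± 0.13 in LCM and 8.61 ± 0.07 in control (SD, n = 3 each), a log2 fold change of 0.13 (95% interval -0.08 to 0.34, adjusted p = 0.484 from limma). Without LCM replicate 3 the log2 fold change was 0.06.

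The promoters of these 3 repressors are shown since their letters match the E-box (Per1 and Cry1) or the D-box (Per1 and Per3). Each run is the 250 bases before the annotated start, 5′ to 3′ on the strand of the gene, with matches to the E-box and the D-box in capitals. Per3 lies at chr4:151044666-151044915 on the minus strand, with D-boxes that begin 205 and 158 bases upstream of the start. Per1 lies at chr11:69098699-69098948 on the plus strand (the first of 2 annotated starts), with an E-box 166 and a D-box 24 bases upstream. Cry1 lies at chr10:85185055-85185304 on the minus strand, with an E-box 60 bases upstream.
Per3: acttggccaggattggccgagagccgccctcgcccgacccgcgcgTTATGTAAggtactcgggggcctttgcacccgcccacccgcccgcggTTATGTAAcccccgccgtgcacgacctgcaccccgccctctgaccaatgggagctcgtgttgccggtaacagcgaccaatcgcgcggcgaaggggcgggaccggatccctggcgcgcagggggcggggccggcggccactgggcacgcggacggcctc
Per1: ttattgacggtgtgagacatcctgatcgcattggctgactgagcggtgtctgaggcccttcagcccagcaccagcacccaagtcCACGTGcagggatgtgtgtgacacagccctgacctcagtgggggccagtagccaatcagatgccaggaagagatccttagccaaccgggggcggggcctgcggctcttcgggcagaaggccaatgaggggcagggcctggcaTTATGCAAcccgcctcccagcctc
Cry1: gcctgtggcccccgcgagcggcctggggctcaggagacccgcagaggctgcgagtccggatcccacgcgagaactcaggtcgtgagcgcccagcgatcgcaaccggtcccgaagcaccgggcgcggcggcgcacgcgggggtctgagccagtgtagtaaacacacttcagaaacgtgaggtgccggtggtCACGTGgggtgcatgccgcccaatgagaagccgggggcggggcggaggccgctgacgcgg

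Nr1d2 encodes REV-ERB beta, which lacks an activation domain and represses genes with a RORE. Its log2 level was 10.21, 10.33 and 10.25 in the LCM arrays, against 9.89, 10.25 and 9.75 in the control arrays. The groups overlapped through control replicate 2, which lay 0.43 above the mean of the other controls and level with the LCM arrays. The mean was 10.26 ± 0.06 in LCM and 9.96 ± 0.26 in control (SD, n = 3 each), 1.23-fold higher in LCM (log2 fold change 0.30, 95% interval -0.004 to 0.61, adjusted p = 0.261 from limma). Without control replicate 2 the log2 fold change was 0.45, and the gene passed (adjusted p = 0.0221 from limma). Without that array, 680 of all genes rose, against 341 with it. Without control replicate 3 the log2 fold change was 0.19. Without any array but control replicate 2, the adjusted p lay between 0.413 and 0.515.

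Dbp, the output factor of the loop and a gene with a steep daily rhythm in most tissues, had the largest log2 fold change of the 7 clock genes. Its log2 level was 10.16, 10.12 and 10.44 in LCM replicates 1, 2 and 3, against 9.86, 9.63 and 9.71 in control replicates 1, 2 and 3. Every LCM array was above every control array, with LCM replicate 3 well above the other 2. The mean was 10.24 ± 0.18 in LCM and 9.73 ± 0.12 in control (SD, n = 3 each), 1.42-fold higher in LCM. The log2 fold change was 0.51 with a standard error of 0.11 (95% interval 0.25 to 0.77, adjusted p = 0.0513 from limma). When a single array was left out, the log2 fold change lay between 0.41 and 0.57 and the adjusted p between 0.0611 and 0.157, so that it passed in none of these 6 subsets.

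**Figure D3:**
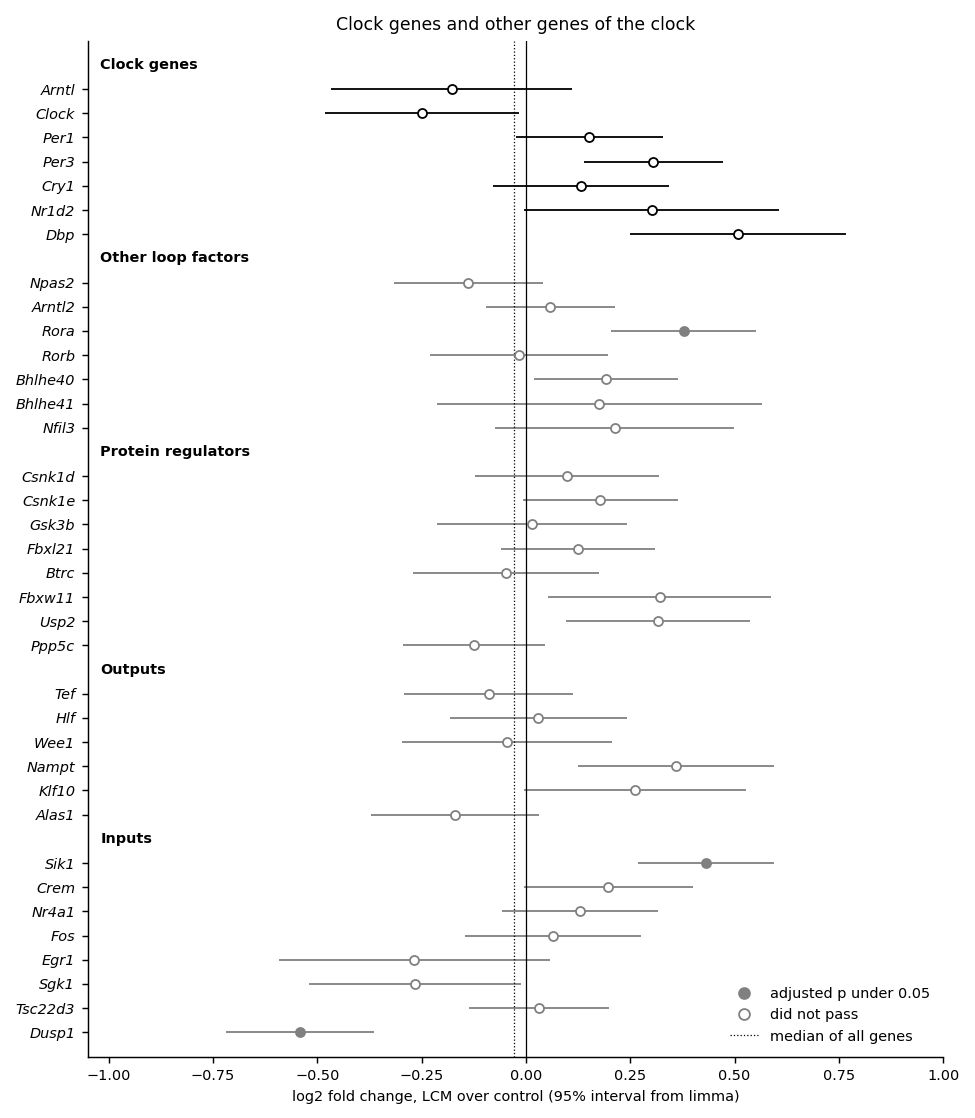
Log2 fold change of LCM over control for the 7 clock genes (black) and 29 other genes of the clock (grey), with 95% intervals from limma; filled points passed an adjusted p of 0.05 and the dotted line is the median of all genes. Rora, Sik1 and Dusp1 are the genes that passed.

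The spread among the arrays of a group was examined because cultures that are out of phase with each other would differ most in rhythmic genes. The median SD of the 7 clock genes was 0.09 in LCM and 0.12 in control, beside 0.08 and 0.13 over all genes tested, and the set was near the median of all genes in both groups. When an array was left out, the median was 0.0279 in LCM without LCM replicate 3. In control it was 0.0676, 0.0749 and 0.163 without control replicates 1, 2 and 3. An SD of 2 arrays is not comparable with an SD of 3, and the matching medians over all genes are not given here. These values therefore do not show that the clock genes rested on single arrays more than other genes did. The SD was larger in LCM for Per1, Per3, Cry1 and Dbp and larger in control for Arntl, Clock and Nr1d2. Over all genes it was larger in LCM for 27.9% and larger in control for 72.1%. The SD of Dbp in LCM, 0.18, was above that of 88.8% of all genes, and the SD of Clock in LCM, 0.02, was above that of only 4.42%. In control, Nr1d2 had the widest spread (0.26, above 83.6% of all genes) and Per1 the narrowest (0.02, above 2.77%).

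**Figure D4:**
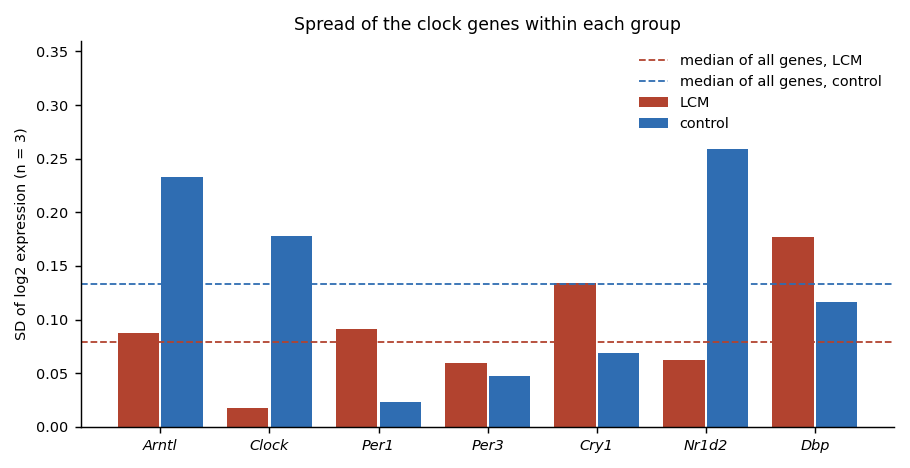
SD of log2 expression among the 3 LCM arrays and among the 3 control arrays for each clock gene, with the medians over all genes as dashed lines. The control bars of Arntl, Clock and Nr1d2 exceed the median of all genes, and in LCM the bars of Cry1 and Dbp stand highest.

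With 3 arrays in a group some array is always farthest from the rest, and which array this was differed between genes. LCM replicate 3 was the highest LCM array for Per1, Per3, Cry1 and Dbp and the lowest for Arntl and Clock, although the LCM values of Clock were almost equal. It stood above the mean of the other LCM arrays by 0.31 for Dbp, 0.23 for Cry1, 0.15 for Per1 and 0.09 for Per3, and differed from it by -0.15 for Arntl. Over all genes it was the highest LCM array for 43.4% and the lowest for 29.8%. Control replicate 2 was the highest control for Arntl, Clock, Per1 and Nr1d2 and the lowest for Dbp. It exceeded the mean of the other controls by 0.40 for Arntl, 0.29 for Clock and 0.43 for Nr1d2. Over all genes it was the highest control for 33.6% and the lowest for 47.3%. Arntl and Dbp thus lay on opposite sides in both of these arrays, whereas Nr1d2 lay on the same side as Arntl in control replicate 2. In control replicate 3, Arntl and Dbp were both below the mean of their group (by log2 deviations of -0.12 and -0.02). The control of Dbp farthest from the others was replicate 1. Deviations within a group cancel out, so opposite sides come easily, and this pattern was not tested. At a single time point, a shift of phase and a change of level cannot be told apart.

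**Figure D5:**
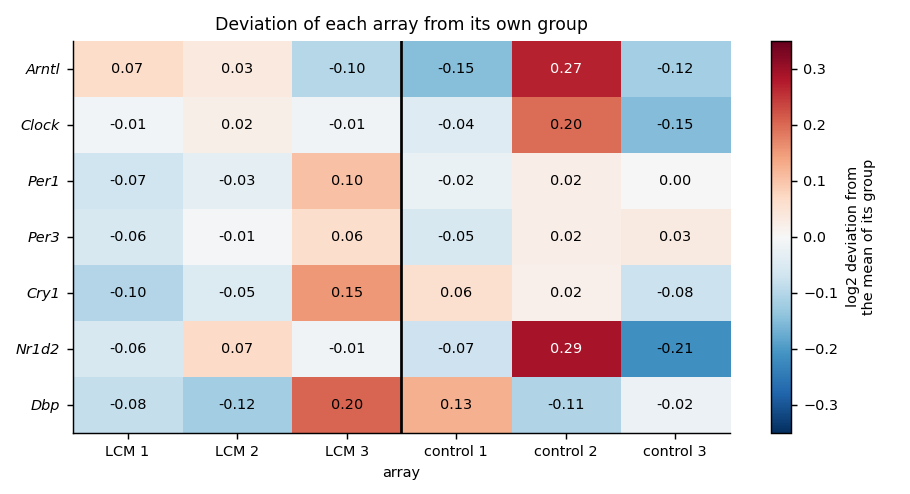
Deviation of each array from the mean of its own group for the 7 clock genes, in log2 units, with the LCM arrays left of the controls. Control replicate 2 is high for Arntl, Clock and Nr1d2 and low for Dbp, and LCM replicate 3 is high for Cry1 and Dbp and low for Arntl.

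Of 9 other transcription factors of the loop, 7 were measured, and 1 rose while none fell, against 2.29% and 1.97% of all genes. Rora, which encodes an activator at the RORE and competes there with REV-ERB proteins, had a log2 level of 9.31, 9.45 and 9.43 in the LCM arrays, against 9.02, 9.07 and 8.97 in the control arrays. The groups did not overlap, and the gene rose 1.30-fold (log2 fold change 0.38 with a standard error of 0.07, adjusted p = 0.0376 from limma). It passed without control replicate 2 but not without any of the other 5 arrays, where the adjusted p lay between 0.0960 and 0.181. The lowest log2 fold change of the list was that of Npas2, a paralog of Clock, at -0.14 (adjusted p = 0.370 from limma), which was -0.09 without LCM replicate 1. The median log2 fold change was 0.18 over the list, beside -0.03 over all genes.

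Of 9 regulators of clock proteins, a list of kinases, a phosphatase, ubiquitin ligase subunits and a deubiquitinase, 8 could be measured and none passed. Before adjustment, limma gave a p under 0.05 to 2 that were higher and to 0 that were lower, against 9.25% and 10.3% of all genes. The log2 fold change was highest for Fbxw11, a ubiquitin ligase subunit that recognizes PER proteins, at 0.32 (adjusted p = 0.178 from limma), and was 0.20 without control replicate 2. It was lowest for Ppp5c, a phosphatase that acts on casein kinase 1 epsilon, at -0.12 (adjusted p = 0.402). Of 7 output genes, 6 could be measured and none passed (1 higher and 0 lower at an unadjusted p under 0.05, against the same 9.25% and 10.3%). Nampt, the enzyme that limits NAD synthesis, had the highest log2 fold change of this list, 0.36 (adjusted p = 0.101 from limma), and passed without control replicate 2 (adjusted p = 0.0257). Alas1, the first enzyme of heme synthesis, had the lowest, -0.17 (adjusted p = 0.331), which was -0.11 without control replicate 2. The medians of these lists were 0.11 and -0.01.

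Of 8 genes that carry serum, cAMP or glucocorticoid signals to the clock or answer the same signals as Per1, all could be measured, and 1 rose and 1 fell, against 2.29% and 1.97% of all genes. Sik1, a kinase that restrains CREB-driven transcription of Per1 during resetting, had a log2 level of 10.94, 10.88 and 10.98 in the LCM arrays, against 10.50, 10.45 and 10.55 in the control arrays. It rose 1.35-fold, with no overlap between groups (log2 fold change 0.43 with a standard error of 0.07, adjusted p = 0.0203 from limma). It still passed without control replicates 2 and 3 (adjusted p = 0.0182 and 0.0490), and the adjusted p lay between 0.0748 and 0.112 without any other array. Dusp1, a phosphatase of MAP kinases and an immediate early gene, had a log2 level of 8.89, 8.91 and 8.93 in the LCM arrays, against 9.40, 9.56 and 9.39 in the control arrays. It fell with a log2 fold change of -0.54 and a standard error of 0.08 (limma, adjusted p = 0.0132), and passed without each control array but not without any LCM array, where the adjusted p lay between 0.0729 and 0.0778. The median log2 fold change of this list was 0.05.

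Genes with the most similar pattern over the 6 arrays were found for the gene with the smallest p of each arm, as a description with no test, since the highest among so many correlations over 6 arrays are always high. For Clock they were Fbxo8, Skida1 and Smc1a (Pearson r of 0.997, 0.996 and 0.995). For Per3 they were Ern1, Ulk1 and Rara (0.994, 0.993 and 0.991), of which Ern1, a sensor of the unfolded protein response, rose with a log2 fold change of 0.91 and Ulk1, a kinase that starts autophagy, with 0.59 (adjusted p = 0.00679 and 0.0158 from limma). For Nr1d2 they were Nfya, Lpin2 and Malt1 (0.996, 0.993 and 0.992), and for Dbp they were Zswim6, Slc30a4 and Fam102a (0.994, 0.993 and 0.993). The 10 genes without a remark did not pass the test.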

How the data were processed

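Gene expression was measured with GeneChip Mouse Gene ST arrays in 3 LCM and 3 control cultures of 3T3-L1 adipocytes. The authors deposited a table of log2 expression, computed with RMA (background correction, quantile normalization and summary of the probes of each transcript), with a column per array. The RMA version, the build behind the annotation and filters on transcripts are not stated. RMA shrinks differences of dim probes, and the number of arrays limits the precision.

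Of 23332 transcripts, 14996 had a single gene symbol in the platform annotation, 1019 had several and 7317 had none listed. For 135 genes with more than 1 transcript, the one with the highest mean was used, and the 7 clock genes were matched by gene identifier to the RefSeq table of GRCm38.p6. LCM was compared with control in limma 3.58.1 (R 4.3.3, lmFit and eBayes, two-sided, no block) over all 14860 genes, with Benjamini-Hochberg adjustment and a threshold of 0.05. The procedure was tested on simulated data. The study's statistics section describes paired two-sided t-tests, which were run as an alternative in paired and unpaired form, among 18 alternatives. From each list of other clock genes, those that passed and those with the highest and lowest log2 fold change are named, and likeness is the 3 highest correlations. The members and lists were chosen with earlier results of these data known. Promoter sequences are from RefSeq, read with Python 3.11.15, and the forms of the motifs were chosen with the windows in view.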

Additional observations from a re-analysis of the deposited data

How the results depend on the processing

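The methods' t-test gave the same count of clock genes past an adjusted p of 0.05 as limma, 0, both unpaired and paired by replicate number. At an unadjusted p under 0.05 it gave 3 higher and 0 lower unpaired, and 1 higher and 0 lower paired. The number of clock genes that rose was 2 when dim genes below the 25th percentile or below the median were left out (Per3 and Dbp). It was 1 with a mean-variance trend (Dbp) and 3 with array weights (Per3, Nr1d2 and Dbp). The count over all genes was also higher there than the 341 of 14860 in the main fit. This count was 438 of 11145 with the 25th percentile filter, 495 of 7430 with the median filter and 394 of 14860 with the trend. With any array omitted, the number of clock genes that rose ranged from 0 to 2, with 2 (Per3 and Nr1d2) without control replicate 2. None fell under any of the 18 alternatives, and 0 of the 7 log2 fold changes turned sign. Of 29 other clock genes, 2 rose and 1 fell. The number that rose was 0 over all transcripts, 1 with array medians centred (Sik1, not Rora) and 5 with array weights. By the t-test it was 1 unpaired (Sik1) and 0 paired. Without a single array it was 0 to 4 (4 without control replicate 2, 1 without control replicate 3, 0 without any other). The number that fell was 0 by either t-test, 0 without any LCM replicate and 1 without any control replicate. Same-numbered deviations correlated at -0.23, 0.06 and 0.11, and some arrays but not all correlated best with their own number. From 3 arrays per group, whether the cultures were paired by replicate number cannot be told. With the replicate number as a block, 0 clock genes and 0 other clock genes rose, and over all genes 173 rose and 151 fell, against 341 and 292 without it. Over all genes, 232 rose and 408 fell with array medians centred, 889 rose and 975 fell with array weights, 120 rose and 85 fell over all transcripts, 104 rose and 66 fell by the unpaired t-test and 0 by the paired one. With any array omitted, 39 (without LCM replicate 3) to 680 (without control replicate 2) rose, and 21 to 652 fell. The median SD of the clock genes lay between 0.0279 (without LCM replicate 3) and 0.117 in LCM and between 0.0676 (without control replicate 1) and 0.163 in control, with 0.0749 without control replicate 2. Causes of these changes were not tested.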
